A study of Arabidopsis thaliana with 6 samples.

Results

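The CBF and DDF genes of Arabidopsis thaliana encode a small clade of AP2/ERF-type transcription factors, and 6 of them were followed here by locus: CBF1 (AT4G25490), CBF2 (AT4G25470), CBF3 (AT4G25480, also DREB1A), CBF4 (AT5G51990), DDF1 (AT1G12610) and DDF2 (AT1G63030). They are 6 of the 27444 nuclear protein-coding genes of the gene table used. A peak was assigned to a gene where its summit, the position of strongest enrichment, was placed inside that gene or at most 3 kb from its edges. This gave 5 of 2225 peaks in one list and 6 of 3601 in the other. The genes were selected on the presence and fold of peaks in these same lists, so the peaks at these genes are described and not tested.

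CBF1, CBF2 and CBF3 lie side by side on chromosome 4 and are known as the fast transcriptional response to cold. Their products bind the CRT/DRE element in the promoters of cold-regulated (COR) genes and raise freezing tolerance, at a cost to growth. CBF4 is known for its response to drought and abscisic acid, and DDF1 and DDF2 for dwarfing and late flowering when overexpressed, with DDF1 linked to salt stress and gibberellin breakdown. In Arabidopsis the flowering regulator SOC1, a MADS-domain protein, has been described as a repressor of CBF genes. SEPALLATA3 (SEP3) belongs to the same MADS-domain family, specifies floral organs and works as dimers or as tetramers of several MADS-domain proteins.

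SEP3 binding was mapped by chromatin immunoprecipitation and sequencing (ChIP-seq) in inflorescences, labelled as floral cells, from long-day plants (16 h light, 8 h dark) kept at 22 °C, so no cold treatment is part of the labels. Both groups were rescue lines in the sep1,2,3 background. One carried wild-type SEP3 as pSEP3:SEP3wt (SEP3wt), the other a tetramerization-deficient SEP3 as pSEP3:SEP3tet (SEP3tet), so the labels name the SEP3 promoter as the driver of each transgene. Each line had 2 ChIP samples precipitated by an antibody to native SEP3 and 1 mock precipitated with pre-immune serum. The values at hand were 1 peak list per line, with no value per replicate, so replicate error is unknown and no test between the lines was possible. Sequencing depth is unknown here and mock signal was not analysed here. Each list gives the authors' fold enrichment, which is ChIP signal over the peak caller's background, and a −log10 q; in whole inflorescences, many weakly occupied cells and few strongly occupied cells cannot be told apart.

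SEP3 peaks covered all 3 genes of the CBF cluster, in both lines, and ranked among the strongest peaks of each list. Within 3 kb of a CBF or DDF gene lay the summits of 5 SEP3wt peaks and 6 SEP3tet peaks. Of the 6 genes, 4 had a summit in SEP3wt, where 13.7% of all protein-coding genes did, and 5 had one in SEP3tet, where 21.2% did. CBF1, CBF2, CBF3 and DDF1 had a summit in both lines, CBF4 in SEP3tet only and DDF2 in neither. Every CBF or DDF gene with a summit had at least 1 inside the gene body. Of the 3759 protein-coding genes with a summit in SEP3wt, 853 had one in the body (3.11% of all genes). In SEP3tet 1242 of 5814 did (4.53% of all genes). The choice of genes rests on these same peaks, so nothing is read from the difference between these shares.

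**Figure D1:**
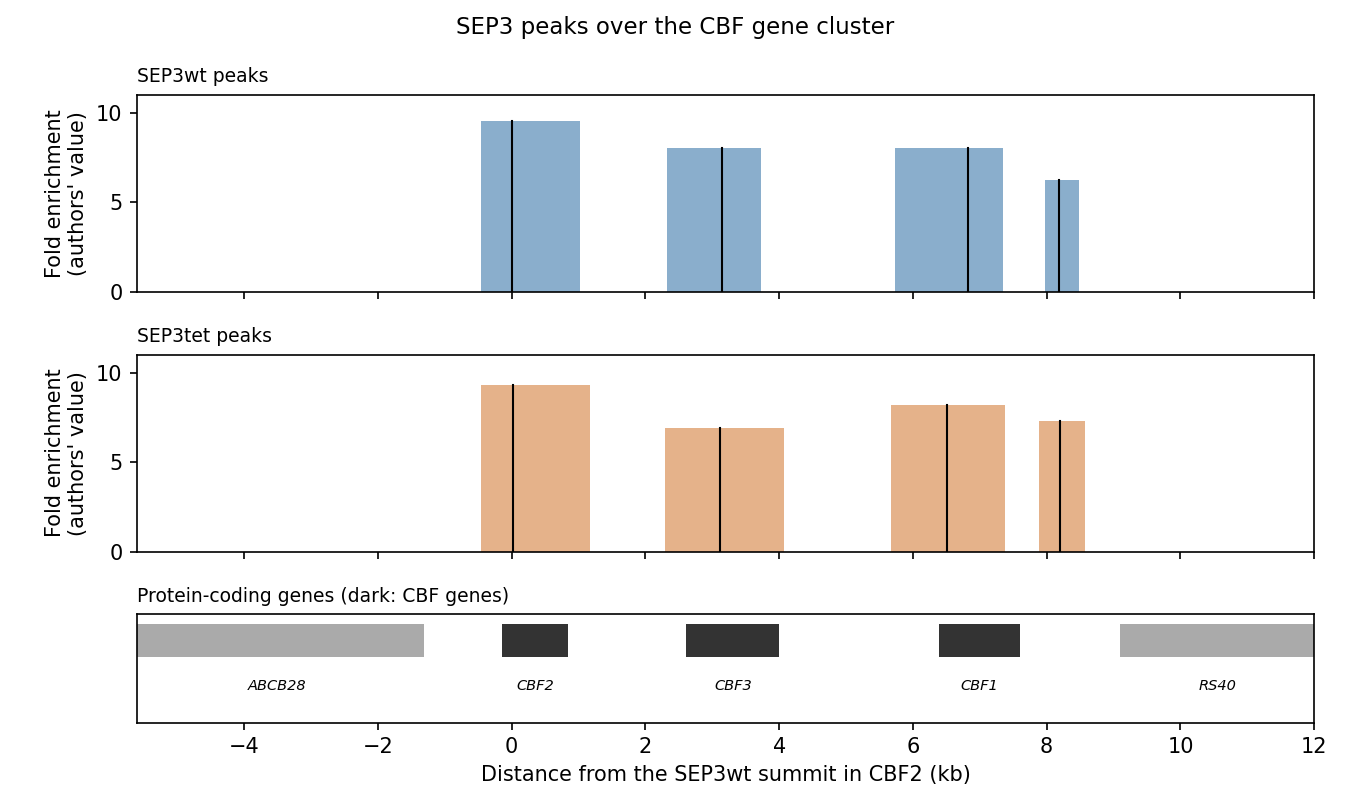
Authors' fold enrichment (vertical axis) of every SEP3wt and SEP3tet peak around the CBF cluster against distance in kb from the SEP3wt summit in CBF2; a box spans each peak, a black line marks its summit, and the lower track shows protein-coding genes. In both lines 3 wide peaks lie over CBF2, CBF3 and CBF1, with a narrower peak between CBF1 and RS40.

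CBF2 carried the strongest peak of the group in each list. In SEP3wt it spanned chromosome 4, 13014933 to 13016421 (TAIR10, counted from 1), with its summit at 13015397, a fold of 9.57 and a −log10 q of 48.3. In SEP3tet it spanned 13014941 to 13016561, with the summit at 13015418, a fold of 9.29 and a −log10 q of 40.6. By fold it was number 9 of 2225 SEP3wt peaks and number 45 of 3601 SEP3tet peaks. The peak covered 100% of the annotated gene in both lines.

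At CBF3 the SEP3wt peak spanned 13017717 to 13019131 of chromosome 4, with a fold of 8.07 and a −log10 q of 42.1. The SEP3tet peak spanned 13017687 to 13019470, with a fold of 6.93 and a −log10 q of 26. These were number 44 and number 222 of their lists by fold. The lists differ in length and the scale between them is not known, so the values stand side by side without a claim of change. The peak covered 80.7% of the gene in SEP3wt and 100% in SEP3tet.

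At CBF1 the SEP3wt peak spanned 13021133 to 13022739, with a fold of 8.05 and a −log10 q of 36. The SEP3tet peak spanned 13021076 to 13022777, with a fold of 8.18 and a −log10 q of 33. They were number 45 and number 100 of their lists by fold and covered 78.9% and 82.0% of the gene. A separate, narrower peak lay beside CBF1, between it and RS40, which encodes an arginine/serine-rich splicing factor. That peak spanned 13023365 to 13023881 in SEP3wt (fold 6.25, −log10 q 22.9) and 13023284 to 13023967 in SEP3tet (fold 7.31, −log10 q 26.7). Its summit lay outside both genes, nearer to CBF1, and it was the only peak of the cluster with its summit outside a gene body.

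By fold the order within the cluster was CBF2, CBF3, CBF1 and the peak beside CBF1 in SEP3wt, with CBF3 and CBF1 nearly equal (8.07 and 8.05). In SEP3tet it was CBF2, CBF1, the peak beside CBF1 and CBF3. With no replicate values, it cannot be said which neighbours in these orders differ beyond their error. CBF1, CBF2 and CBF3 are close copies of each other in sequence, and the sources used here do not say how reads that align to more than 1 copy were treated. The folds at the 3 genes may therefore share reads; this was not tested.

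The 3 gene-body peaks of the cluster were wide as well as strong. They measured 1489 bp at CBF2, 1415 bp at CBF3 and 1607 bp at CBF1 in SEP3wt, where the median peak was 262 bp wide and 7.82% of peaks exceeded 1 kb. In SEP3tet they measured 1621, 1784 and 1702 bp in the same order, beside a median of 282 bp and 3.78% of peaks over 1 kb. Among the 174 SEP3wt peaks over 1 kb, the peaks at CBF2, CBF3 and CBF1 were numbers 4, 16 and 17 by fold. Among the 136 such peaks of SEP3tet they were numbers 5, 16 and 11. The median fold of peaks over 1 kb was 5.01 in SEP3wt and 4.73 in SEP3tet, below each of the 3. The peak beside CBF1 was 517 bp wide in SEP3wt and 684 bp in SEP3tet. Whether the pre-immune serum gave signal over the same gene bodies was not tested.

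**Figure D2:**
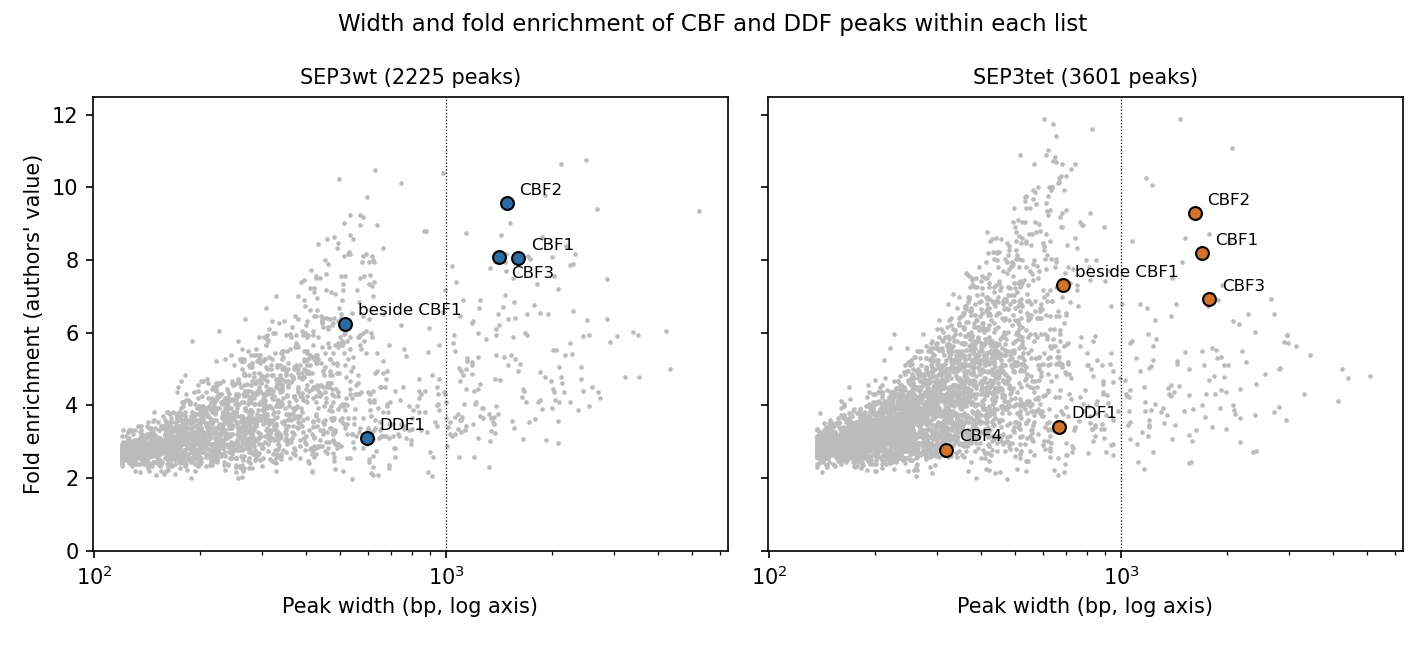
Authors' fold enrichment against peak width (log axis) for every peak of each list in grey, with the CBF and DDF peaks in colour and a dotted line at 1 kb. The peaks at CBF1, CBF2 and CBF3 lie right of 1 kb at folds of 6.93 to 9.57. Those at DDF1 and CBF4 lie left of it at folds of 2.78 to 3.41.

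Peaks covered more of the CBF cluster than of nearly any other stretch of its size. From the first peak start to the last peak end, 8.95 kb in SEP3wt and 9.03 kb in SEP3tet, peaks covered 56.2% and 64.2% of the bases. No other place in either list had 3 successive peaks over 1 kb with summits within 10 kb. In windows of 10 kb moved in steps of 1 kb, the covered length reached 5.03 kb at the cluster in SEP3wt and 5.79 kb in SEP3tet. In SEP3wt 2 places in the genome, the cluster included, reached at least the cluster's value, and in SEP3tet the cluster alone did. Groups of 4 summits within 10 kb were common by comparison, with 47 in SEP3wt and 95 in SEP3tet. These measures were chosen after the peaks had been seen.

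The peaks also reached beyond the CBF coding genes. The CBF3 peak covered 35.9% (SEP3wt) and 39.2% (SEP3tet) of AT4G07385, a locus annotated as a long non-coding RNA that overlaps the edge of CBF3. The CBF1 peak covered 30.9% and 35.4% of AT4G03125, a non-coding locus between CBF3 and CBF1. Neither locus held a summit. Beside the CBF genes, ABCB28, which encodes an ABC transporter, had the CBF2 summit within 3 kb, and RS40 had the CBF1 summit and the one beside CBF1.

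The assignment to single CBF genes depends on where the 3 kb window ends. In SEP3wt the CBF2 and CBF1 summits fell inside the window of CBF3, at 2.61 and 2.81 kb from it, and the CBF3 summit fell inside that of CBF2, at 2.31 kb. The CBF3 summit lay 3.23 kb from CBF1 in SEP3wt and 3.27 kb in SEP3tet, just outside. Thus CBF3 counted 3 summits in each line, and CBF1 and CBF2 counted 2 each.

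At DDF1 the peaks were of middling strength and lay inside the gene in both lines. The SEP3wt peak spanned chromosome 1, 4290220 to 4290816, with a fold of 3.10 and a −log10 q of 4.43. The SEP3tet peak spanned 4290097 to 4290762, with a fold of 3.41 and a −log10 q of 5.73. In SEP3wt 61.8% of all peaks had a higher fold, and in SEP3tet 59.4%. These peaks were 597 and 666 bp wide, wider than most of their lists, and they covered 52.6% and 58.7% of the gene. The neighbouring gene AT1G12600 had the same summits within 3 kb.

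At CBF4 a weak peak was called in SEP3tet only, at chromosome 5, 21117132 to 21117450, with its summit in the gene. It had a fold of 2.78 and a −log10 q of 3.14, and 89.9% of SEP3tet peaks had a higher fold. It also ranked low among the 1680 SEP3tet peaks that overlapped no SEP3wt peak, 86.7% of which had a higher fold. The nearest SEP3wt summit to CBF4 lay 41.0 kb away. With 1 list per line, a peak just missed in SEP3wt and an unoccupied gene cannot be told apart. DDF2 had no summit within 3 kb in either line; the nearest lay 29.2 kb away in both, at AT1G63100.

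At CBF1, CBF2, CBF3 and DDF1 the peaks of the wild-type and the tetramerization-deficient protein overlapped, as did most SEP3wt peaks of the whole list. All 5 SEP3wt peaks overlapped a SEP3tet peak by at least 1 bp, beside 84.7% of the whole SEP3wt list, and 5 of the 6 SEP3tet peaks overlapped a SEP3wt peak, beside 53.3%. Summits of the 2 lines lay 2 bp apart beside CBF1, 6 bp apart at DDF1, 21 bp at CBF2 and 41 bp at CBF3. The median over the 1726 one-to-one pairs of overlapping peaks was 25 bp. CBF1 was the exception, with summits 311 bp apart; 2.72% of all such pairs, and 20 of the 89 pairs in which both peaks exceeded 1 kb, lay at least as far apart.

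Counted from the lower-coordinate end, the CBF1 summit lay at 35.8% of the gene in SEP3wt and at 10.2% in SEP3tet. At CBF2 it lay at 14.9% and 17.1%, and at CBF3 at 38.8% and 35.8%. The CBF4 summit of SEP3tet lay at 32.7% and the DDF1 summits at 34.9% and 34.4%. The summit thus fell in the lower-coordinate part of every gene that had one; the gene table gives no strand, so these positions are not named as upstream or downstream.

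Each SEP3tet peak was wider than its SEP3wt partner, by 69 bp at DDF1, 95 bp at CBF1, 132 bp at CBF2, 167 bp beside CBF1 and 369 bp at CBF3. The same held for 79.8% of the 1726 pairs, which are of all widths. The share among pairs of peaks over 1 kb was not computed. Peaks over 1 kb numbered 174 in SEP3wt and 136 in SEP3tet. The fold was higher in SEP3tet at CBF1, at DDF1 and beside CBF1 and lower at CBF2 and CBF3. Across pairs of all widths it was higher in SEP3tet in 77.8%. The median fold was 3.38 in SEP3wt and 3.65 in SEP3tet over all peaks, and 5.01 and 4.73 over peaks above 1 kb.

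Among genes that respond to cold or to the CBF and DDF proteins, most had a summit within 3 kb in each line, and some had wide peaks in their bodies. Of 21 such genes, 14 had a summit in SEP3wt (66.7%, beside 13.7% of all genes) and 15 in SEP3tet (71.4%, beside 21.2%). Both lines shared 14 of these. A summit in the gene body was found for 11 genes in SEP3wt (52.4%, beside 3.11%) and 9 in SEP3tet (42.9%, beside 4.53%). A body summit of a peak over 1 kb was found for 7 genes in each line (33.3%), beside 0.594% of all genes in SEP3wt and 0.434% in SEP3tet. Several of these genes are neighbours that counted the same peak, so genes of the list are not independent. Among them are COR15A and COR15B, COR47 and ERD10, KIN1 and KIN2, and RD29A and RD29B. This list, like the gene lists below, was chosen with earlier results of these data known. Nothing is therefore read from the difference between its shares and those of all genes.

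**Figure D3:**
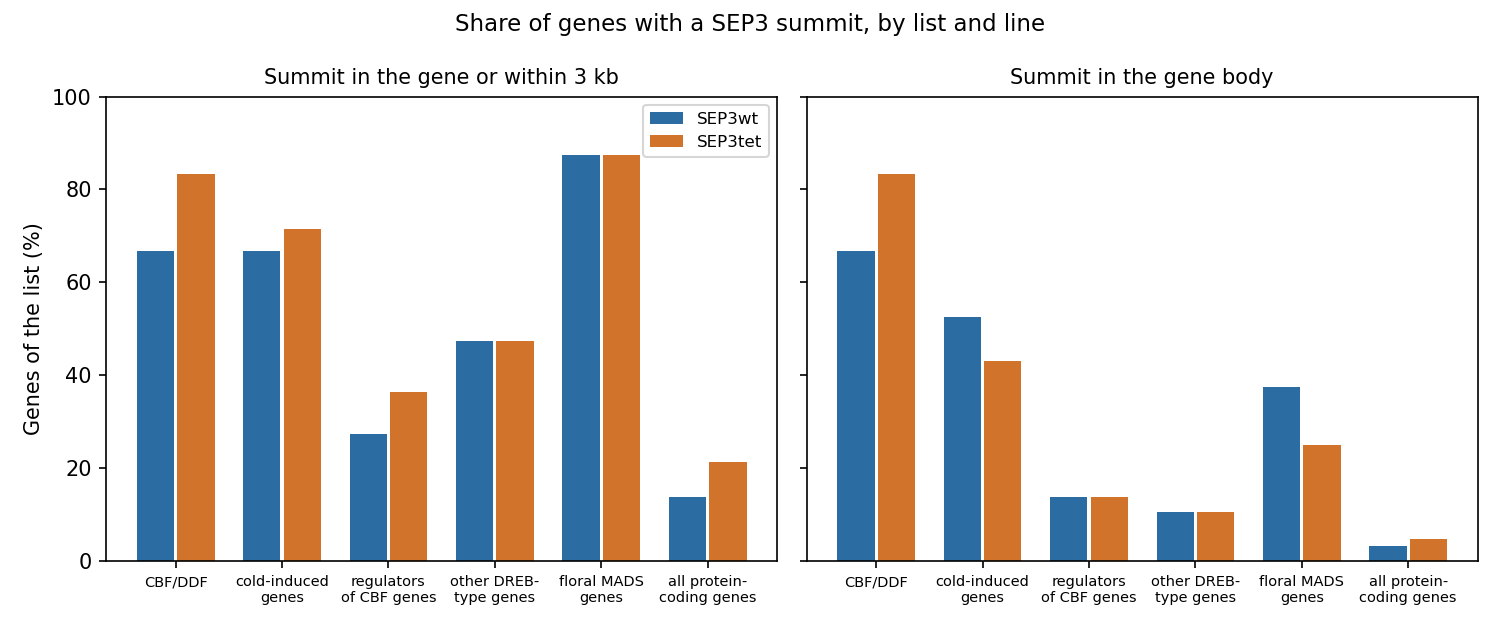
Share of genes (%, vertical axis) with a SEP3 summit in the gene or within 3 kb (left) and in the gene body (right), for 5 gene lists and all protein-coding genes, in SEP3wt and SEP3tet. Cold-induced genes reach 66.7% and 71.4% on the left and 52.4% and 42.9% on the right, beside 13.7% and 21.2%, and 3.11% and 4.53%, of all genes. The lists were chosen with earlier results of these data known.

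ERD10 and COR47, neighbours that encode dehydrins, each held a wide body peak. The ERD10 peak measured 1699 bp in SEP3wt (chromosome 1, 7087560 to 7089258), with a fold of 6.52, and 1556 bp in SEP3tet, with a fold of 5.00. The strongest COR47 peak in SEP3wt had a fold of 6.53 and a width of 1401 bp (7084100 to 7085500), and in SEP3tet the strongest peak in its reach was that of ERD10. At KIN2, a small cold-induced gene, the fold was 4.87 in SEP3wt (chromosome 5, 5211918 to 5213101) and 6.45 in SEP3tet, and KIN1 counted the same peaks. RD29A, the classic reporter of the CRT/DRE pathway, had a SEP3wt peak of 1988 bp with a fold of 4.68 (chromosome 5, 21241374 to 21243361), and a body peak over 1 kb was also called there in SEP3tet. The strongest of the 3 SEP3tet peaks in its reach was a separate one, 305 bp wide and just outside the gene, with a fold of 4.86.

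COR15A, which encodes a chloroplast protein that protects membranes on freezing, had folds of 3.86 and 3.87 in the 2 lists. COR413-IM1, which encodes a chloroplast inner envelope protein, had 3.16 and 4.42. ZAT10, a zinc-finger gene of the same cold response, was also among the genes with a summit. The highest fold of the list was that of RAV1 in SEP3tet, 11.07 beside 5.93 in SEP3wt; RAV1 is named after its values were seen. LTI30, COR413-PM1, GOLS3, GA2OX7, GA2OX3 and RGL3 had no summit within 3 kb in either line. GA2OX7, a gibberellin 2-oxidase gene, is a known target of DDF1.

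Genes that act on CBF expression or on the cold pathway above the CBF genes had fewer summits, 6 of 22 in SEP3wt (27.3%, beside 13.7%) and 8 of 22 in SEP3tet (36.4%, beside 21.2%). ICE1, ICE2 and the CAMTA genes, whose products activate CBF transcription in the cold, had none in either line, nor did the repressor gene MYB15 or the clock genes CCA1 and LHY. The same held for PIF3, PHYB, PRR7, PRR9, HOS1 and EIN3. Those with a summit in both lines were PIF4 and PIF7, which encode light-signalling repressors of CBF genes, the clock gene PRR5, the brassinosteroid-response gene BZR1, the zinc-finger gene ZAT12 and SOC1. The strongest summits in reach of PRR5 and BZR1 lay outside these genes in both lines, nearest to AT5G24460 and AT1G75060. OST1, a kinase gene of abscisic acid signalling, had 1 summit in SEP3tet only, with a fold of 4.18 and nearest to AT4G33945. CES had 2 summits, also in SEP3tet only, with a highest fold of 4.08.

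SOC1 had the highest fold of this list, 7.50 in SEP3wt (chromosome 2, 18812927 to 18813495) and 9.91 in SEP3tet, at a summit nearest to the neighbour AT2G45670. PIF4 had its summit in the gene, with folds of 6.15 (chromosome 2, 17886326 to 17886839) and 7.79. ZAT12 had a wide body peak in each line, 1238 bp with a fold of 6.69 in SEP3wt (chromosome 5, 24103021 to 24104258) and 1203 bp with a fold of 5.03 in SEP3tet. It was the only gene of the 22 with a body peak over 1 kb.

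Among 19 other protein-coding DREB-type genes, 9 had a summit in SEP3wt (47.4%, beside 13.7% of all genes) and 9 in SEP3tet (47.4%, beside 21.2%). A summit in both lines was found for 7. In each line 2 of the 19 genes had a summit in the body (10.5%, beside 3.11% of all genes in SEP3wt and 4.53% in SEP3tet). The median of the highest folds was 3.16 in SEP3wt and 3.84 in SEP3tet, beside 3.59 and 3.89 over all genes with a summit. The body summits lay in DREB2A, which encodes a drought and heat factor, with folds of 3.59 and 3.05, and in ORA47, a jasmonate-response factor gene, with 6.09 and 3.84. In SEP3wt DREB2A and ORA47 had body peaks over 1 kb, of 1104 and 1388 bp (10.5% of the list, beside 0.594% of all genes). In SEP3tet none of the 19 genes had one, beside 0.434% of all genes. DREB26 had folds of 3.00 and 4.61, and TINY2 2.51 and 2.64. DEAR2, which encodes a DREB protein with a repressor motif, had 3.16 and 6.64. RAP2.1 and AT2G44940 also had a summit in both lines, ERF38 and DEAR1 in SEP3tet only, and AT1G12630 and DEAR4 in SEP3wt only. AT1G12630 is a near neighbour of DDF1; its SEP3wt summit lay 9.35 kb from DDF1 and is not the one counted there. RAP2.1 and DEAR1 are also in the cold-induced list. The strongest summits in their reach lay outside these genes, nearest to AT1G46840 for RAP2.1 and AT3G50270 for DEAR1.

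**Figure D4:**
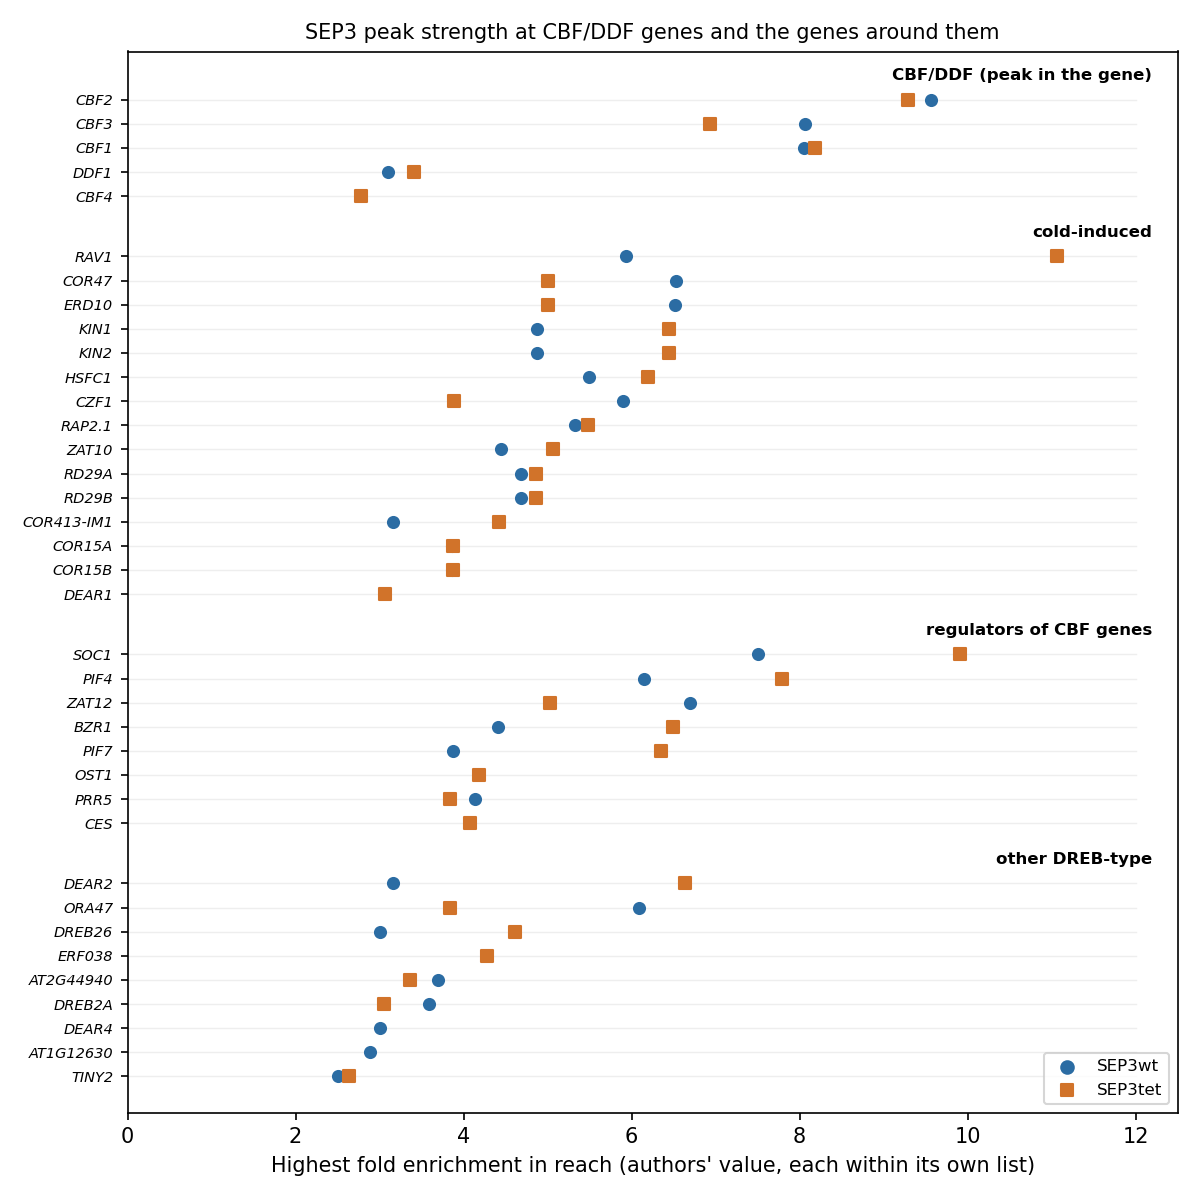
Highest authors' fold enrichment in reach of each gene that had a summit, SEP3wt as circles and SEP3tet as squares, with the peak inside the gene shown for CBF and DDF genes; a missing symbol means no peak, and at COR15A and COR15B the square hides the circle. CBF2 exceeds every other gene shown in SEP3wt, at 9.57, while in SEP3tet SOC1 at 9.91 and RAV1 at 11.07 lie above its 9.29.

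The peaks over CBF1, CBF2 and CBF3 were set beside those of 8 floral MADS-domain genes. Of AP1, AP3, PI, AG and SEP1 to SEP4, 7 had a summit in each line (87.5%). The share of all genes was 13.7% in SEP3wt and 21.2% in SEP3tet. SEP2 had none in SEP3wt and SEP1 none in SEP3tet. The highest fold in reach of the others ran from 3.27 to 7.99 in SEP3wt and from 3.07 to 8.52 in SEP3tet. These peaks need not lie in the genes: those counted for PI and SEP3 were nearest to BCB and AT1G24265 in both lines. The peak over CBF2 lay above both ranges, and those over CBF1 and CBF3 above the first and within the second. In each line 1 peak over 1 kb was in reach of the 8 genes, of 1322 bp in SEP3wt and 2810 bp in SEP3tet, with its summit outside their bodies. None of these 8 genes had a body summit of a peak over 1 kb in either line. Among all genes, 0.594% had one in SEP3wt and 0.434% in SEP3tet. CBF1, CBF2 and CBF3 each had one in both lines. The CBF genes were selected on the fold of these same peaks, so nothing is read from these differences. No test of them was made.

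By the percentile of the highest fold in each list, summed over both lists, the genes most like CBF2 among 1573 candidates with a symbol and a summit in both lines were LOG1, OZF2 and SPL8. LOG1 had folds of 10.22 and 9.91, OZF2 9.73 and 10.30, and SPL8 9.19 and 10.25, in SEP3wt and SEP3tet in turn. The summed percentile differences were 0.652, 0.823 and 0.947. The peaks at these genes were narrower than at CBF2, from 496 to 595 bp in SEP3wt and from 562 to 700 bp in SEP3tet, and at SPL8 alone of the 3 the summit lay in the gene.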

How the data were processed

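ChIP-seq peaks of SEP3wt and SEP3tet inflorescences were used as deposited, 1 list per line. MACS2 2.2.7.1, Bowtie2 2.2.5, Trimmomatic 0.36 and deepTools are named with build TAIR10, per the submitters' processing notes. The sources used here do not say how replicates were combined or whether the mock was the control. The authors' fold is a ratio of signal to background at the summit, read from the narrowPeak layout. The authors' −log10 q values come from their peak caller. The deposited score was 10 times the −log10 q, cut to a whole number, and was not used.

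Genes came from a RefSeq table of assembly TAIR10.1, matched by locus, without strand; none of its coordinates are printed. Summits fell in gene bodies less often unshifted (45.3% in SEP3wt, 39.8% in SEP3tet) than after any of 10 shifts (at least 54.7% and 54.3%). No test was made. The script (Python 3.11.15) was tested on 200 simulated peaks with 0 errors. Genes named were all 6 CBF and DDF genes, up to 10 genes with a summit per other list in list order, genes sharing their peaks, and the 3 most like CBF2. Members and lists were chosen with earlier results of these data known. Alternatives were the window, the nearest gene, a stricter q, equal list lengths and other overlap rules.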

Additional observations from a re-analysis of the deposited data

How the results depend on the processing

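The number of CBF and DDF genes with a summit stayed within 1.5 times of the reported value under every alternative run except one: when peaks under a −log10 q of 10 were left out it fell to 3 in SEP3tet, as DDF1 and CBF4 dropped out. Overlap counts of their peaks stayed within that bound with 100 bp between summits, a stricter overlap, a stricter q or a 1 kb window. In all, 63 of 80 values stayed within it. With gene bodies alone, regulators of the cold pathway fell to 3 in SEP3wt and 3 in SEP3tet, cold-induced genes to 9 in SEP3tet, and other DREB-type genes to 2 in each line. With −log10 q of at least 10, regulators fell to 5 in SEP3tet and DREB-type genes to 2 in SEP3wt and 3 in SEP3tet. The share of all genes moved in SEP3wt to 7.79% with a 1 kb window, 3.11% with gene bodies, 6.74% with the nearest gene and 4.60% at the stricter q. In SEP3tet it moved to 12.3%, 4.53%, 10.6% and 7.76% in the same order. These settings count fewer summits or, for the nearest gene, fewer genes per summit. No paired analysis was possible because each line has 1 peak list and no values per replicate; for the same reason no replicate was left out.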
